A study of Mus musculus with 6 samples.

Results

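The mammalian circadian clock was followed through 10 of its genes in Gli1-lineage cells of the adult mouse ovary. These were Clock, Arntl, Per2, Per3, Cry1, Cry2, Nr1d1, Nr1d2, Dbp and Tef, taken as every probe set on the array (a group of short probes read as 1 signal) that the platform annotation assigns to exactly 1 of these symbols. This gave 25 probe sets of 45037 without controls, and 10 genes of 18193 with a symbol. Of the 10 genes, 3 (Cry1, Cry2 and Nr1d1) had a single probe set and 7 had several.

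The cells came from female Gli1-CreERT2; Rosa-LSL-tdTomato mice of strain 129S6/SvEvTac at 2 months of age. Both groups carry the tamoxifen-inducible Cre driven by Gli1, a hedgehog-responsive transcription factor, and the tdTomato reporter that Cre switches on for life. Mesonephros-derived cells (3 arrays) had been labelled in the fetus, by tamoxifen on 3 days, E12.5, then E14.5, then E16.5. Ovary-derived cells (3 arrays) had been labelled after birth, from P1 to P3, by treating the mother that nursed them. The label marks adult cells descended from ones that expressed Gli1 during treatment, and the share of such cells that carry it is not known here. The sort thus selects a lineage and not a single cell type, and origin changed together with the time of tamoxifen. The labels do not say whether a sample pooled animals, and the sources used here give neither the hour of collection nor the light cycle. The question is whether the clock state at collection differed between the groups.

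The clock runs in most cells as a feedback loop of transcription. CLOCK and ARNTL (also called BMAL1) bind E-box elements and switch on the Per and Cry genes, whose proteins return to the nucleus and shut CLOCK and ARNTL down. In a second loop the nuclear receptors NR1D1 and NR1D2 repress Arntl, and the factors DBP and TEF, which bind D-box elements, carry the rhythm to output genes. Arntl therefore peaks roughly opposite to Nr1d1, Dbp and the Per genes in the tissues where this has been followed. The ovary, its theca cells included, has a clock of its own.

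These elements can be read in part from the 250 bases before the transcription start, given here for the pair of genes that stood out together on 1 array (Cry1 and Cry2), for the member with the largest difference in its brightest probe set (Per3), and for Ciart, a repressor of the clock described further on. Sequences are from RefSeq, build GRCm38.p6, read 5′ to 3′ on the gene's strand, with motifs in capitals. The Cry1 window is chr10:85185055-85185304, the Cry2 window chr2:92434070-92434319, the Per3 window chr4:151044666-151044915 and the Ciart window chr3:95882229-95882478, all on the minus strand.
Cry1: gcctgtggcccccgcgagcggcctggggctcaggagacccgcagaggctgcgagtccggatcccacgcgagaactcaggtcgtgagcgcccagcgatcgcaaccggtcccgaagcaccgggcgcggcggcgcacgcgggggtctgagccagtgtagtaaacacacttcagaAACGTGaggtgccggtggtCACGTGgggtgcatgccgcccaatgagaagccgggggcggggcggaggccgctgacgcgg
Cry2: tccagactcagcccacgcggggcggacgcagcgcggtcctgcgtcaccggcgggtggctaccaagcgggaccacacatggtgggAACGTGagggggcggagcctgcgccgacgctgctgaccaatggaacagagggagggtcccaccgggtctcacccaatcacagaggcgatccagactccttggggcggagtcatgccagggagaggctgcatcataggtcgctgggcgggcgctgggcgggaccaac
Per3: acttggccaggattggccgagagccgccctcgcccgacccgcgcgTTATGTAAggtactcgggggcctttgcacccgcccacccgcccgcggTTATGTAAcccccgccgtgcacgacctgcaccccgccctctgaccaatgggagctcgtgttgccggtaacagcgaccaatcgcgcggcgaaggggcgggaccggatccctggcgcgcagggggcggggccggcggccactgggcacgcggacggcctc
Ciart: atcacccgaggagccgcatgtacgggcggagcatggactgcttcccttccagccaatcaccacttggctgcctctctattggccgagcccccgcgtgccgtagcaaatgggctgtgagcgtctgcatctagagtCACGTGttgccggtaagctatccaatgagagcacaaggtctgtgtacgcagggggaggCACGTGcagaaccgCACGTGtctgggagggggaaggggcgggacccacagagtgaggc

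Both strands were searched for the E-box CACGTG, its variant CACGTT, the D-box TTANGTAA and the ROR element TAGGTCA, and no matches in the printed windows overlap. Cry1 held an E-box 60 bases and a CACGTT 79 bases before the start, and Cry2 a CACGTT at 166 bases. Per3 held D-boxes at 205 and 158 bases, and Ciart held 3 E-boxes, at 116, 58 and 44 bases. Of the 9 members in the promoter table, 2 (Cry1 and Tef) had an E-box, 3 (Cry1, Cry2 and Nr1d1) a CACGTT, 1 (Per3) a D-box and 0 a ROR element in this window. Of all 32851 promoters, 6.02% held the E-box, 3.85% CACGTT, 2.06% the D-box and 2.23% the ROR element, and of the 27025 genes they belong to, 6.86%, 4.5%, 2.44% and 2.55% had the motif in at least 1 promoter. A match is a description of the letters in the window.

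Values are the deposited MAS5 signals, moved to log2(signal + 16) for tests, a scale that understates changes of dim genes. Across probe sets without controls, mesonephros-derived arrays correlated with each other at 0.844 to 0.896 and ovary-derived arrays at 0.963 to 0.973. Mesonephros-derived replicate 3 lay closer to the ovary-derived arrays (0.946 to 0.95) than to its own group. Relative to the mean of the ovary-derived arrays, the poly-A spikes that enter before amplification stood at 12.8, 13 and 2.47 on mesonephros-derived replicates 1, 2 and 3 and at 0.711 to 1.61 on ovary-derived arrays. Theca and steroidogenic markers were found for 5 of the 7 genes listed, none below the floor, with a summed signal of 24455 to 42405 in mesonephros-derived and 15011 to 22747 in ovary-derived cells. Smooth muscle and pericyte markers (10 of 10 found) summed to 68288 to 83849 against 32906 to 40329, and stromal markers (7 of 7) to 83108 to 122504 against 61004 to 71704. Endothelial markers (8 of 8, Tie1 below the floor) summed to 3380 to 5519 against 5110 to 8202, and macrophage markers (8 of 8, Adgre1 and Fcgr1 below the floor) to 1331 to 11519 against 4996 to 7636. The part of these differences in the clock values was not tested.

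No clock probe set differed between the groups past the threshold of an adjusted p of 0.05 (limma, 27022 probe sets tested). Of the 25 clock probe sets, all of which lay above the floor of signal set for testing (a mean of 115.51), 0 passed, against 0.0148% of all probe sets tested. The smallest limma adjusted p was 0.272. At an unadjusted limma p of 0.05 there were 2 clock probe sets (8%), against 13.0% of all. For 4 of the 25 (16%) the ranges of the groups did not overlap, against 21.3% of all. The mesonephros-derived arrays were the lower ones in each of these 4, and in 58.7% of all probe sets without overlap. Both shares, 8% and 16%, were below those of the array as a whole. They rest on 2 and 4 probe sets, too few to set the clock genes apart from it. The median change of the 25, mesonephros-derived minus ovary-derived, was 0.03 log2 units, against −0.11 for all probe sets tested, and the median size of the change regardless of direction was 0.25 against 0.38. Intervals were wide, with a median half-width of 0.99 log2 units (95% confidence), so a difference near 2-fold in either direction could not be told from none for a typical member.

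**Figure D1:**
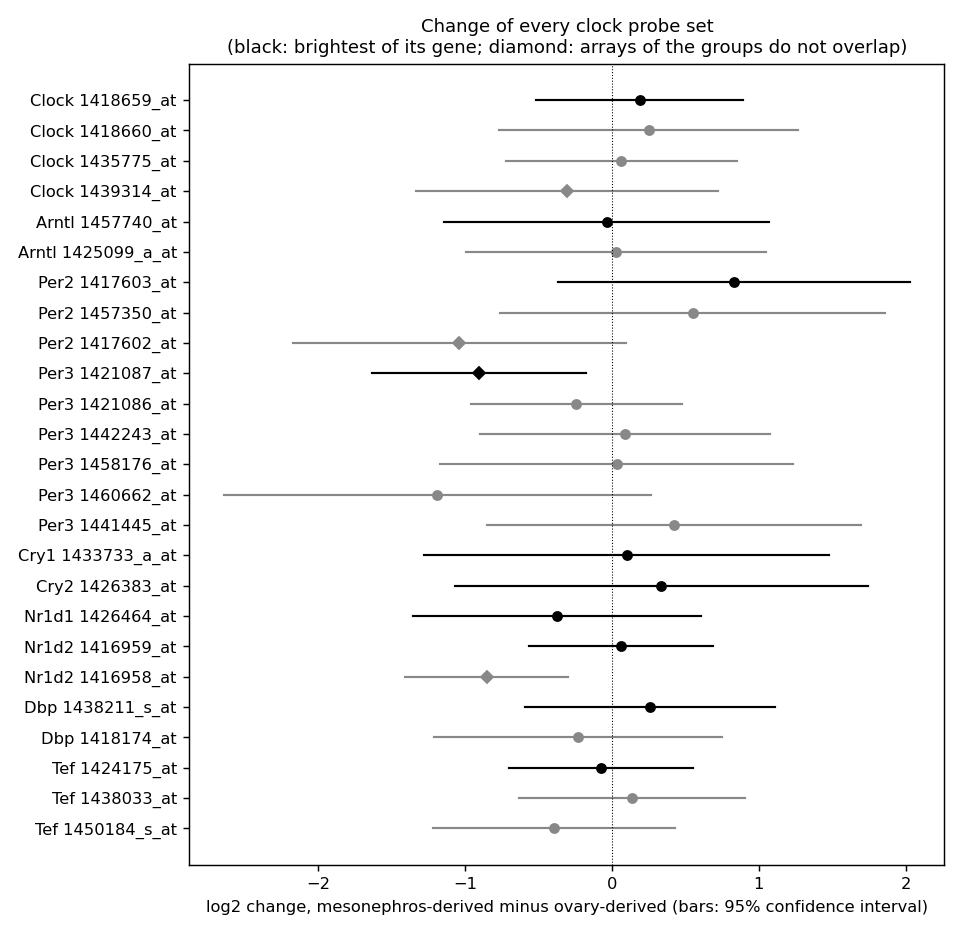
Log2 change (mesonephros-derived minus ovary-derived) of each of the 25 clock probe sets with its 95% confidence interval from limma; black marks the brightest probe set of a gene and diamonds the 4 probe sets whose groups do not overlap. Changes run from −1.19 (Per3) to 0.83 (Per2), and 23 of the intervals include 0.

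Clock and Arntl encode the partners of the activator. The brightest Clock probe set read 930.3, 1396 and 619.1 on mesonephros-derived replicates 1, 2 and 3 and 867.5, 817.8 and 763.4 on the ovary-derived ones. The ovary-derived values lay within a 1.14-fold range and inside the 2.26-fold range of the mesonephros-derived ones. The log2 change was 0.19 ± 0.31 (SE, limma adjusted p = 0.815), with an interval from −0.52 to 0.89, and −0.10 without mesonephros-derived replicate 2. Its other probe sets stood at 0.25, 0.06 and −0.31. The last, 1439314_at, did not overlap between the groups, at 85.77 to 133.6 against 139.1 to 146.4, with 1 mesonephros-derived array below the floor (adjusted p = 0.791).

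Arntl, the clock gene whose loss alone stops the rhythm, read 94.4, 153 and 290.5 on mesonephros-derived replicates 1, 2 and 3 and 138.2, 176 and 191.8 on ovary-derived ones. Replicate 1 was below and replicate 3 above every ovary-derived array, so the mesonephros-derived arrays lay on both sides of the other group. Replicate 1 also lay below the floor of signal, here and for the second Arntl probe set given below. Neither Arntl probe set was tested with the floor at the 60th percentile. The log2 change was −0.04 ± 0.49 (SE, limma adjusted p = 0.98), with an interval from −1.14 to 1.07. It lay on the other side of 0 without mesonephros-derived replicate 1 (0.31), mesonephros-derived replicate 2 (0.01) or ovary-derived replicate 3 (0.06), and after quantile normalization (0.05) or median centring (0.04). The second Arntl probe set stood at 0.03 ± 0.45 and was lowest on the same array, at 101.1, with 229.1 and 199.5 on mesonephros-derived replicates 2 and 3 and 152.3 to 186 on ovary-derived arrays.

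The Per genes encode repressors that bind the Cry proteins, and Per2 is also a target of hormone and stress signals. The brightest Per2 probe set, 1417603_at, read 139.4, 399 and 166.4 on mesonephros-derived replicates 1, 2 and 3, against 70.34, 141.6 and 137.1. Its groups overlapped, since mesonephros-derived replicate 1 lay below an ovary-derived array. Ovary-derived replicate 1, at 70.34, lay below the floor of signal. The log2 change of this probe set was 0.83 ± 0.53 (SE, limma adjusted p = 0.519), or 0.40 without mesonephros-derived replicate 2 and 0.55 without ovary-derived replicate 1. No Per2 probe set was tested with the floor at the 60th percentile. A second, 1417602_at, went the other way, at 103.7, 49.48 and 140.3 against 192.2, 174.2 and 252.6. It did not overlap between the groups, and its log2 change was −1.04 ± 0.50 (SE, limma adjusted p = 0.415), with 2 of the mesonephros-derived arrays below the floor. The same array, mesonephros-derived replicate 2, was the highest of all 6 for the first Per2 probe set and the lowest for the second. The third stood at 0.55 ± 0.58 and had 3 arrays below the floor. Averaged over its probe sets Per2 stood at 0.11, and it has no settled direction on these arrays.

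Per3, a paralog of Per2 that is not needed for the rhythm itself, had the largest change among the brightest probe sets of the 10 genes. Its signal was 506, 272.4 and 545.6 on mesonephros-derived replicates 1, 2 and 3 and 728.2, 809.1 and 893 on the ovary-derived ones. All mesonephros-derived arrays were lower, with means of 441 ± 148 against 810 ± 82.4 (SD, n = 3 each). The log2 change was −0.91 ± 0.32 (SE, interval −1.64 to −0.18), which did not pass (limma unadjusted p = 0.02, adjusted p = 0.326), and it was −0.60 without mesonephros-derived replicate 2. The 5 other Per3 probe sets overlapped between the groups. Of these 1460662_at stood at −1.19 ± 0.65, where replicate 1 at 23.5 set the value against 140.2 and 196.4 on the other mesonephros-derived arrays and 195.6 to 262.3 on ovary-derived ones. The remaining 4 stood at −0.24 to 0.42, and averaged over its probe sets Per3 stood at −0.30.

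Cry1 and Cry2 encode the repressors that hold CLOCK and ARNTL inactive, and both stood apart on 1 array. Cry2 read 4223 on mesonephros-derived replicate 1, 628.6 on replicate 2 and 663.5 on replicate 3, against 927, 986.2 and 959.2 on ovary-derived arrays. Replicate 1 was at 4.41 times the ovary-derived mean, while replicates 2 and 3 lay below every ovary-derived array, which differed among themselves by 1.06-fold at most. Cry1 was also highest on replicate 1, with 969.6 there (3.08 times the ovary-derived mean), 156.3 and 226.1 on replicates 2 and 3, and 336, 393.3 and 215.1 on ovary-derived arrays. Its ovary-derived values differed by up to 1.83-fold, and mesonephros-derived replicate 3 lay within their range. Each Cry gene has a single probe set, so no second reading was available. High readings on replicate 1 were not limited to the Cry genes. Nfil3 and Klf4, on lists described further on, stood there at 3.37 and 3.04 times the ovary-derived mean. On replicates 2 and 3 Nfil3 stood at 1.28 and 1.02 times that mean, and Klf4 at 0.764 and 0.89.

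The Cry group means therefore rest on that array. The log2 change of Cry2 was 0.34 ± 0.62 (SE, limma adjusted p = 0.835) with all arrays and −0.56 without mesonephros-derived replicate 1 (adjusted p = 0.25). That of Cry1 was 0.10 ± 0.61 (adjusted p = 0.952) with all arrays and −0.66 without it (adjusted p = 0.392), and it was −0.14 without ovary-derived replicate 3. On replicate 1 the 3′ control probe set of Gapdh read 5.29 times its 5′ one, a ratio that rises as RNA degrades, against 3.48 and 2.63 on replicates 2 and 3 and 1.94 to 2.86 on ovary-derived arrays. The poly-A spikes were about as high on replicate 2 (13), where the Cry signals were low, as on replicate 1 (12.8). The part of RNA integrity or amplification in the Cry values was not tested.

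**Figure D2:**
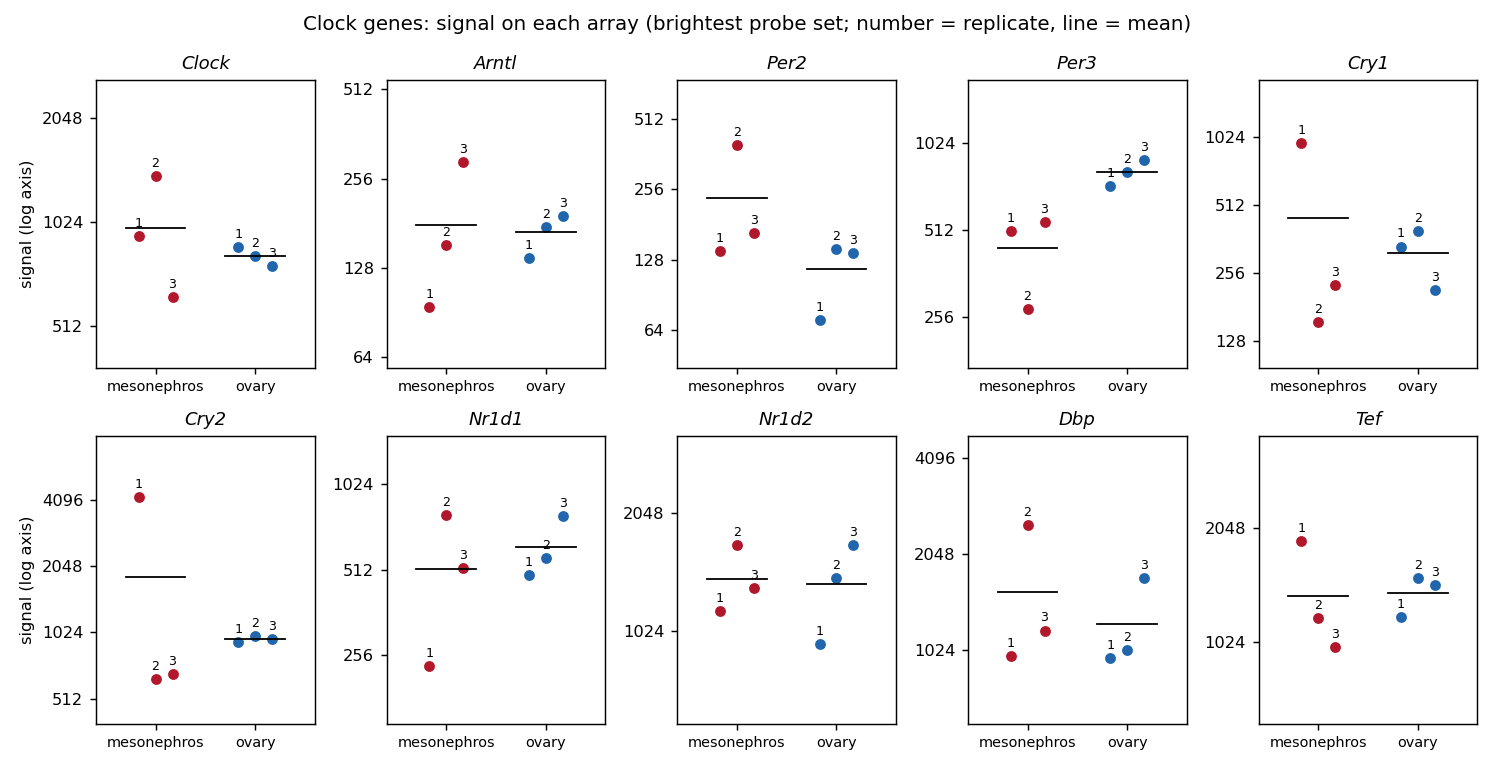
Signal of the brightest probe set of each of the 10 clock genes on every array (log axis, arbitrary units); points are arrays with their replicate number, lines are group means. Mesonephros-derived replicate 1 stands alone for Cry2 (4223) and Cry1 (969.6), and Per3 is the only gene of the 10 here whose groups do not overlap.

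Nr1d1 and Nr1d2 encode the heme-binding receptors that repress Arntl. Nr1d1 read 234.9, 795.9 and 517.1 on mesonephros-derived replicates 1, 2 and 3 and 491.5, 560.8 and 792.1 on ovary-derived ones. Mesonephros-derived replicate 1 was the lowest of all 6 arrays, as it was for Arntl, and replicate 2 matched the highest ovary-derived array. The log2 change was −0.37 ± 0.43 (SE, limma adjusted p = 0.725), and it was 0.09 without replicate 1.

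Nr1d2 gave 2 different pictures. Its brightest probe set, 1416959_at, read 1151, 1695 and 1318 against 948.5, 1402 and 1701, overlapped between the groups and stood at 0.06 ± 0.28 log2 units (SE, limma adjusted p = 0.935), or −0.09 without mesonephros-derived replicate 2 and −0.17 without ovary-derived replicate 1. The other, 1416958_at, read 1142, 776.4 and 734.7 against 1546, 1718 and 1482, so all mesonephros-derived arrays were lower, at 884 ± 224 against 1582 ± 122 (SD, n = 3 each). Its log2 change of −0.85 ± 0.25 (SE, interval −1.41 to −0.30) had the smallest p of the 25 clock probe sets (limma unadjusted p = 0.00692, adjusted p = 0.272). It passed only with arrays weighted by their noise (−1.05, limma adjusted p = 0.0474), a fit that called 273 probe sets in all, and its adjusted p was 0.0774 without mesonephros-derived replicate 1. Which of the probe sets follows the Nr1d2 transcript was not examined here.

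Dbp and Tef encode the D-box activators that pass the rhythm on, and Dbp is among the genes with the widest daily swing in most tissues. The brightest Dbp probe set read 985.8, 2521 and 1181 on mesonephros-derived replicates 1, 2 and 3 and 965.7, 1024 and 1718 on ovary-derived ones. Replicate 2 was the highest of all 6 arrays, and the other mesonephros-derived arrays lay within the ovary-derived range. The log2 change was 0.26 ± 0.38 (SE, limma adjusted p = 0.784), or −0.14 without mesonephros-derived replicate 2, while the second Dbp probe set stood at −0.23 ± 0.44, or 0.24 without mesonephros-derived replicate 3 and −1.89 with the poly-A spikes as a covariate (limma adjusted p = 1). Tef read 1894, 1186 and 993.3 against 1192, 1511 and 1446, and stood at −0.07 ± 0.28 log2 units (SE, limma adjusted p = 0.92), or 0.12 without mesonephros-derived replicate 3 and 0.01 after median centring. Its other probe sets stood at 0.14 ± 0.34 and −0.40 ± 0.37. All 7 genes with several probe sets had probe sets on both sides of 0.

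The clock probe sets, like most probe sets tested, varied more among the mesonephros-derived arrays than among the ovary-derived ones. The SD of log2 signal within the group was larger in mesonephros-derived cells for 23 of the 25, the exceptions being 1 probe set each of Nr1d2 and Tef. Their median SD was 0.67 against 0.26 log2 units. Over all probe sets tested, 82.9% were more spread in mesonephros-derived cells, with median SDs of 0.53 and 0.23. Of the 25, 19 lay outside the ovary-derived range on mesonephros-derived replicate 1, 19 on replicate 2 and 16 on replicate 3. Over all probe sets the shares were 80.9%, 77% and 63%.

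Among the ovary-derived arrays the clock probe sets moved in part together, several of them being readings of the same gene. Replicate 3 was the highest of the 3 for 16 of the 25 clock probe sets and replicate 1 the lowest for 18, against 38.7% and 40.5% of all probe sets tested. A check added after these counts were seen centred each array on its median. Replicate 3 was still the highest for 14 of the 25, against 25.7% of all, and replicate 1 the lowest for 11, against 22.3%. Centring also turned the order over all probe sets tested, with replicate 1 the highest for 53.1% and replicate 3 the lowest for 46.2%. The shares of all probe sets set against the 25 were therefore lower than before centring. Nr1d1 stood 0.39 log2 units above the ovary-derived mean on replicate 3 and 0.29 below it on replicate 1. Dbp stood 0.52 above on replicate 3, and the brightest Nr1d2 and Per3 probe sets 0.37 and 0.14 above. Arntl was highest on replicate 3 as well, at 0.18. On the brightest probe sets, however, Clock was highest on replicate 1, and Per2, Cry1, Cry2 and Tef on replicate 2. Averaged over a gene's probe sets, Cry1 and Cry2 were highest on replicate 2 and all other members on replicate 3. Of the 25, 3 were lowest on replicate 3, namely Cry1 at −0.48, the brightest Clock probe set at −0.09 and the other Nr1d2 probe set at −0.09. The poly-A spikes stood at 0.711, 0.873 and 1.61 on replicates 1, 2 and 3, and their part in this pattern was not tested.

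**Figure D3:**
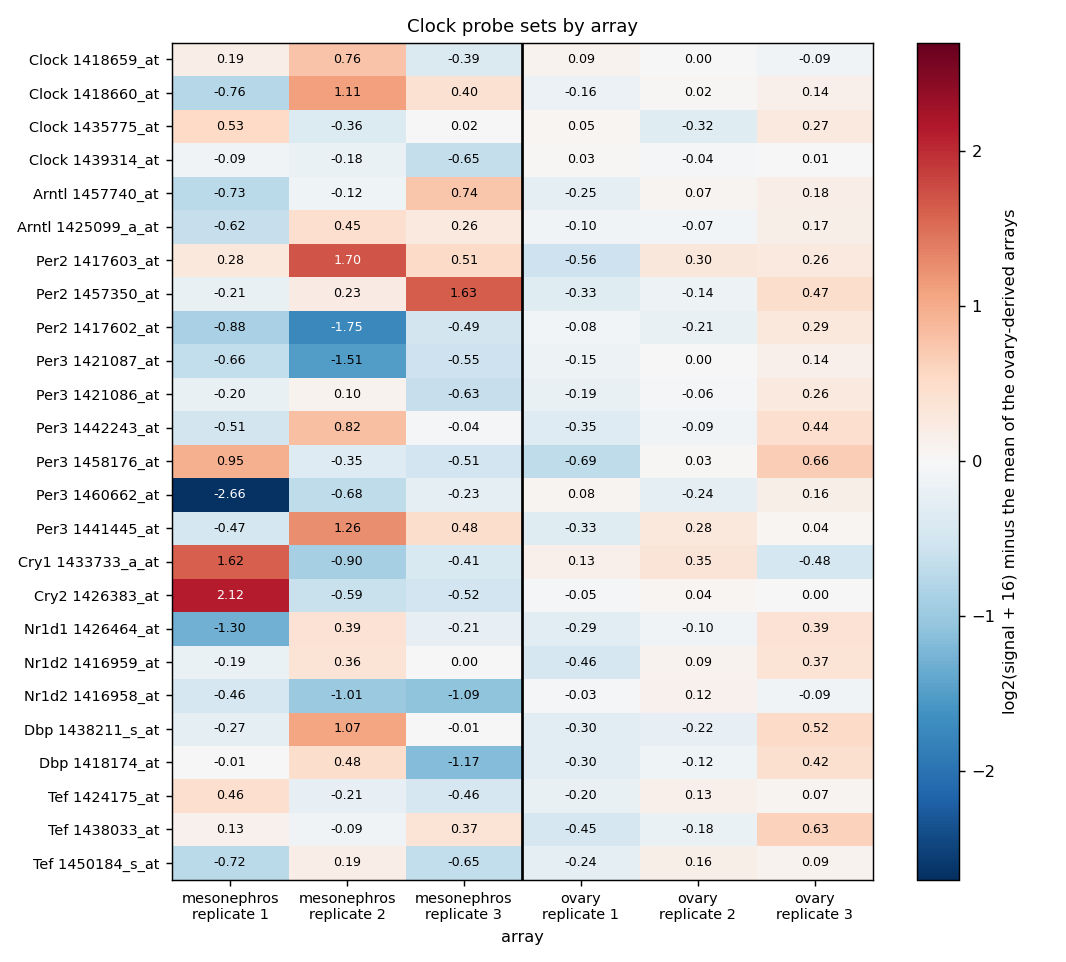
Log2(signal + 16) of each of the 25 clock probe sets on each array, minus the mean of the ovary-derived arrays; red is above and blue below that mean. The mesonephros-derived columns hold the extremes (2.12 for Cry2 and −2.66 for a Per3 probe set, both on replicate 1), and most entries of ovary-derived replicate 3 are above 0.

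The order of the arrays was compared for 3 pairs of genes that mark opposite or equal phases of the loop, each on its brightest probe set over the 6 arrays. Nr1d1 and Dbp, both driven by CLOCK and ARNTL, went together with a Pearson r of 0.72 (exact permutation p = 0.124, adjusted over the 3 pairs 0.321) and a Spearman rho of 0.89 (exact permutation p = 0.0333, adjusted 0.1). Without the 2 arrays farthest from the median of Nr1d1, r was 0.93. Arntl and Nr1d1, which peak apart in a running clock, had r = 0.57 (exact permutation p = 0.214, adjusted 0.321) and rho = 0.49 (0.356, adjusted 0.356), or r = 0.50 without the 2 arrays farthest from the median of Arntl. Arntl and Dbp had r = 0.17 (exact permutation p = 0.732, adjusted 0.732) and rho = 0.54 (0.297, adjusted 0.356), and r = 0.16 without those 2 arrays. No pair passed after adjustment, the tests were two-sided, and none of the 3 values of r was negative, although that of Arntl and Dbp was −0.05 after quantile normalization and −0.20 after median centring. Under the same settings r was 0.26 and 0.28 for Arntl and Nr1d1, and 0.76 and 0.57 for Nr1d1 and Dbp. Each group alone holds too few arrays for a coefficient of its own.

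Other genes of the clock loops were taken from a list of 13, of which 12 were found, 10 had a brightest probe set past the floor and 0 passed the threshold (limma; 2 of the 10 at an unadjusted p of 0.05, against 13.0% of all probe sets tested). Of these 10 brightest probe sets, 6 were on the higher and 4 on the lower side of 0, with a median of 0.29 log2 units, against −0.11 for all probe sets tested, and 4 did not overlap between the groups, against 21.3% of all. Ciart, a repressor of CLOCK and ARNTL whose promoter with 3 E-boxes is printed above, read 197.4, 240.8 and 282.4 in mesonephros-derived and 78, 112.7 and 113.2 in ovary-derived cells. All ovary-derived arrays lay below the floor, so Ciart was tested only because of its signal in mesonephros-derived cells. The difference did not pass (log2 change 1.13 ± 0.43 SE, interval 0.17 to 2.09, limma adjusted p = 0.347). Arntl2, a paralog of Arntl, read 359.7, 342.6 and 428 against 182.9, 213.9 and 194 (0.88 ± 0.33 SE, adjusted p = 0.343), and its other probe set stood at 1.18 with overlapping groups.

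Per1, the Per gene that answers quickly to hormones and light, read 522.9, 373 and 405.8 in mesonephros-derived against 228.9, 312.4 and 365.3 in ovary-derived cells. The groups did not overlap, although the closest arrays read 373 and 365.3, and the log2 change was 0.51 ± 0.33 (SE, limma adjusted p = 0.524). Cipc, which inhibits CLOCK, read 610.8, 861.8 and 843.2 against 1115, 895.4 and 1124 (−0.44 ± 0.25 SE, adjusted p = 0.484), while its other probe sets stood at 0.02 and −0.89. Npas2, which can replace Clock, stood at 0.70 ± 0.60, Nfil3, which opposes DBP at D-boxes, at 0.70 ± 0.42, Rora, which opposes NR1D1, at 0.08 ± 0.32, and Hlf, a relative of DBP and TEF, at −0.56 ± 0.56. Bhlhe40, an E-box repressor, stood at −0.49 ± 0.34 and Timeless at −0.41 ± 0.30. The brightest probe sets of these last 6 overlapped between the groups. Other Rora probe sets ran from −1.02 ± 0.78 to 0.56 ± 0.45, and the last of these, 1424035_at, did not overlap (limma adjusted p = 0.601). Nfil3 read 1742 on mesonephros-derived replicate 1, where Cry1 and Cry2 were also highest, and 661.8 and 525.8 on replicates 2 and 3. On ovary-derived arrays it read 454.6 to 579.2.

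**Figure D4:**
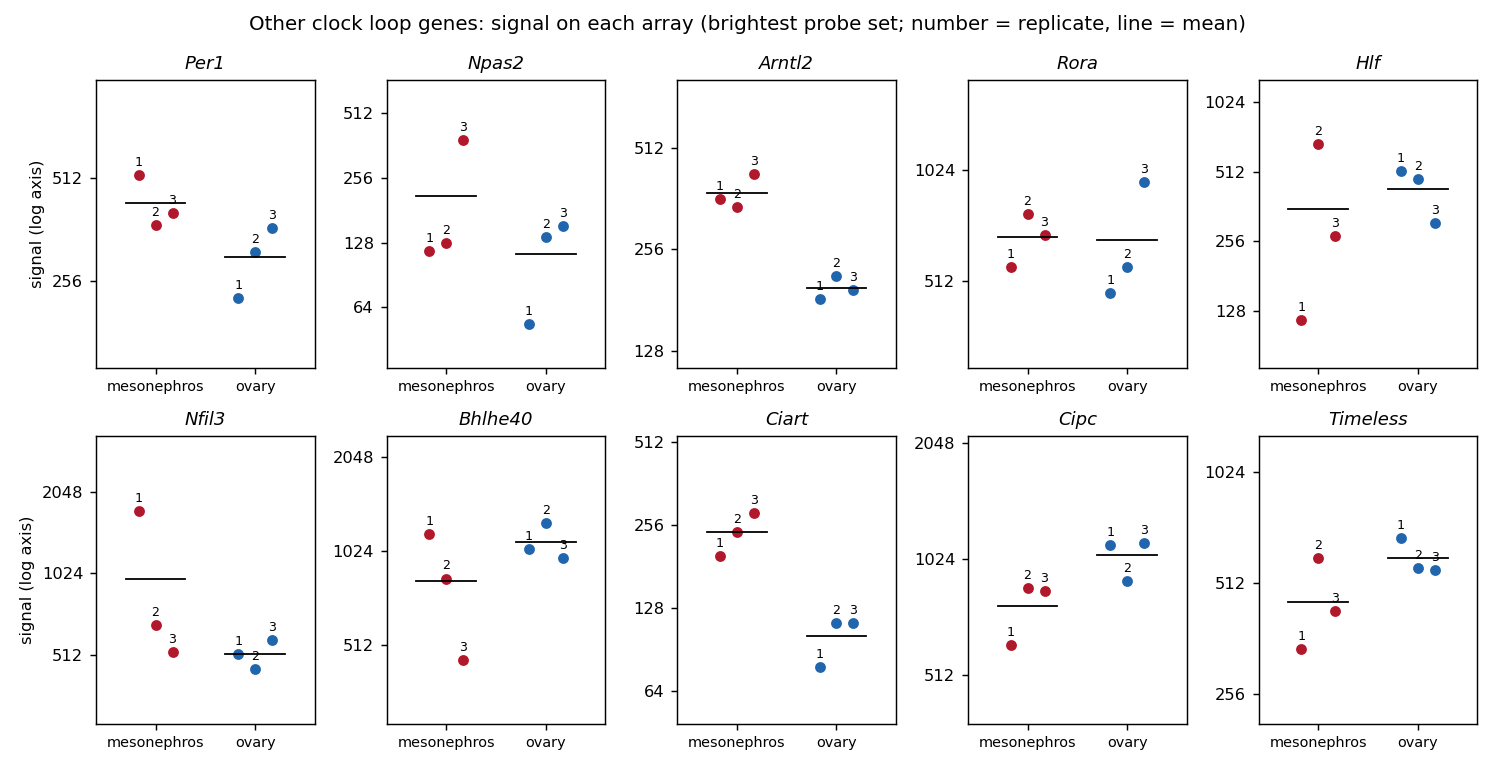
Signal on every array (log axis, arbitrary units) of the brightest probe set of the 10 other clock loop genes past the floor; points are arrays with their replicate number, lines are group means. Ciart, Arntl2 and Per1 lie higher and Cipc lower on all mesonephros-derived arrays, and none passed the threshold.

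Regulators of clock proteins, 13 kinases, ubiquitin ligases and other factors of which 10 had a brightest probe set past the floor, were split evenly, with 5 higher and 5 lower, a median of 0.13 and 0 past the threshold (limma; 1 of the 10 at an unadjusted p of 0.05, against 13.0% of all). Fbxw11, a ubiquitin ligase subunit that marks PER proteins for destruction, stood at 0.43 ± 0.15 (SE, limma adjusted p = 0.326). Csnk1d, the kinase that primes PER proteins for it, stood at 0.34 ± 0.16 (adjusted p = 0.414). Each had 2 or more other probe sets on the other side of 0. Huwe1, a ligase, stood at 0.59 ± 0.33 with overlapping groups, and its other probe sets at −0.24 to 0.21.

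Genes known to be rhythmic in many tissues were also split evenly, with 4 of 8 brightest probe sets higher and 4 lower, a median of 0.05 and 0 past the threshold (limma; 0 at an unadjusted p of 0.05 as well, against 13.0% of all). All 8 overlapped between the groups. Tsc22d3, a glucocorticoid target, stood at 0.59 ± 0.34 log2 units (SE, limma adjusted p = 0.481), Tspan4 at 0.24 ± 0.24 and Cdkn1a at 0.48 ± 0.51. Other tested probe sets of Tsc22d3 stood at 0.76 ± 0.49 and −0.40 ± 0.34, and the other Cdkn1a probe set at −0.96 ± 0.70. A second probe set of Wee1, the cell cycle kinase under clock control, read 167.2, 144.9 and 144.2 against 525.9, 360.5 and 342.2 (−1.32 ± 0.36 SE, limma adjusted p = 0.251), and was singled out after its values were seen, while the brightest Wee1 probe set stood at −0.14 ± 0.36.

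Immediate early genes, which cell dissociation switches on and which share inducers with Per1 and Per2, were followed beside the clock. Of 12 brightest probe sets 3 were on the higher and 9 on the lower side of 0, with a median of −0.37 and 0 past the threshold (limma; 2 of the 12 at an unadjusted p of 0.05, against 13.0% of all). Ier2 stood at −1.47 ± 0.27 log2 units (SE, limma adjusted p = 0.157), Btg2 at −1.18 ± 0.43 (adjusted p = 0.337) and Fosb at −1.02 ± 0.47 (adjusted p = 0.402). The list's summed signal was 118894, 58881 and 40609 on mesonephros-derived replicates 1, 2 and 3 and 59476, 67350 and 87406 on the ovary-derived ones. It was highest on mesonephros-derived replicate 1. There Cry1 and Cry2 were highest. On that array 7 of the 25 clock probe sets were the highest of the group, against 31.9% of all probe sets tested. A further 12 were the lowest, a count for which the share of all was not taken. Among ovary-derived arrays the summed signal was highest on replicate 3. There 16 of the 25 clock probe sets were highest, against 38.7% of all, and Cry1 was lowest. The part of the immediate early genes in the clock values was not tested.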

How the data were processed

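RNA of 6 samples of sorted tdTomato-positive cells was amplified from a fixed volume because concentrations varied, per the labels' protocols, and read on 1-colour arrays. The deposited values are linear signal intensities that the authors made with MAS5, per the submitters' processing notes. The sources used here do not give its version or settings. Each array had a mean of 500 after trimming 2% at each end, and no further normalization was applied. Of 45101 probe sets, 64 controls were left out. Of the rest, 34945 had 1 symbol, 932 had more than 1 and 9160 have no name here. Those with a mean signal at or above the 40th percentile (27022) were tested on log2(signal + 16) with limma 3.58.1 in R 4.3.3 (lmFit, eBayes with intensity trend, group as the only factor, Benjamini-Hochberg adjustment over all of them).

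The members and lists were chosen with earlier results of these data known. Named are all members, any called probe set of the other clock lists, and the 3 genes with the smallest p in each. Per1, Npas2, Nfil3, Rora, Hlf, Bhlhe40, Timeless and Wee1 fall outside this rule and were added after their values were seen. Some genes on these lists are not reported here. No 2 arrays were identical. Precision is limited by 3 arrays per group, and as the labels name no separate animals, p-values reflect sample-to-sample spread that may be technical. Same-numbered samples did not deviate together (correlations of deviations from the group means 0.004 to 0.061), so replicate numbers were not used as pairs. Lists also covered granulosa, luteal, oocyte, epithelial, and lymphoid and erythroid markers, whose summed signals overlapped between the groups, at 4555 to 6507 against 4820 to 6387, 815.2 to 1513 against 653.2 to 951.6, 238.6 to 619.4 against 279 to 324.8, 168.6 to 362.1 against 183.3 to 407.7, and 307.6 to 475.3 against 270.6 to 313.4.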

Additional observations from a re-analysis of the deposited data

How the results depend on the processing

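The count of 0 clock probe sets past the threshold held under 19 of 20 alternatives and became 1 with array weights. In the main setting 2 had an unadjusted limma p under 0.05. With the floor at the 60th percentile only 15 of the 25 clock probe sets were tested, none of them of Per2 or Arntl. Of all probe sets, limma called 4 in the main setting, 2 with a pseudocount of 1, no floor or median centring, 7 with a pseudocount of 64, a floor at the 60th percentile or quantile normalization, 9 after averaging each gene's probe sets, 1 without the trend, 273 with array weights, 8 with the replicate block, 0 with the poly-A spike covariate, and 0 to 91 without 1 array. With the replicate block the smallest adjusted p of a clock probe set was 0.311. Of 198 changes of the 10 genes under alternatives, 171 kept their direction and 0 passed. They are of each gene's brightest probe set, except that 1 setting averaged a gene's probe sets. Without _s_at probe sets, Dbp was read from its other probe set, which stood at −0.23 in the main setting too. Per2 and Per3 did not turn but shrank, Per2 to 0.11 averaged over its probe sets and 0.14 with the spike covariate, Per3 to −0.30 and −0.50. Of the 15 other clock probe sets, 7 turned without 1 of the arrays. Turned values were, with array weights, Clock −0.03, Arntl 0.30, Cry1 −0.43 and Cry2 −0.20; with the spike covariate, Clock −0.58, Arntl 0.96, Cry1 −0.36, Cry2 −0.93, Nr1d2 −0.30 and Dbp −0.48; Arntl 0.05 after quantile normalization and 0.04 after median centring, Tef 0.01 after median centring; Nr1d2 −0.40 averaged over its probe sets; and Dbp −0.23 without _s_at probe sets. The spikes were higher on every mesonephros-derived array than on any ovary-derived one, so the fit with that covariate tells spikes and groups apart poorly. Its SEs were 0.84 for Arntl, 1.24 for Cry1 and 1.19 for Cry2, against 0.49, 0.61 and 0.62 in the main setting. The cause of the turned values was not tested. Without 1 array each, the ranges were −0.10 to 0.48 for Clock, −0.42 to 0.31 for Arntl, −0.66 to 0.60 for Cry1, −0.56 to 0.80 for Cry2, −0.76 to 0.09 for Nr1d1, −0.17 to 0.25 for Nr1d2, −0.14 to 0.53 for Dbp and −0.34 to 0.12 for Tef. The correlation of Arntl with Dbp was −0.05 after quantile normalization and −0.20 after median centring.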
